A study of Mus musculus with 6 samples.

Results

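The genes described here are 5 ligands of the bone morphogenetic protein (BMP) family (Bmp2, Bmp4, Bmp5, Bmp6 and Bmp7), 4 secreted BMP antagonists (Nog, Grem1, Chrd and Chrdl1) and Bambi, a membrane pseudoreceptor. They were taken by name: every probe set of the array whose single gene symbol in the platform annotation was one of these 10 genes was used, which gave 17 of 34945 probe sets and 10 of 18193 genes. The series profiled tongues of C57BL/6J mouse embryos at embryonic day 14.5 on 6 Affymetrix arrays, and asked which genes depend on TGF-beta signalling while the tongue muscle forms. The 3 mutants were Tgfbr2 fl/fl; Wnt1-Cre. They carried Tgfbr2, the gene of the type II TGF-beta receptor, with both alleles floxed, and Cre recombinase was driven by Wnt1, which is active in the neural crest. The 3 controls were Tgfbr2 fl/fl without Cre, although their titles call them wildtype, so no group carried Cre alone. Skeletal muscle fibres, epithelium and vessel endothelium of the tongue do not descend from the neural crest, so their cells keep an intact receptor gene in the mutants. Litters are not given in the labels, and p-values measure only the spread between these samples.

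BMPs are secreted dimers of the TGF-beta superfamily that bind paired type I and type II receptor kinases, and the receptors phosphorylate Smad1, Smad5 and Smad9. Noggin (Nog), gremlin 1 (Grem1), chordin (Chrd) and chordin-like 1 (Chrdl1) bind BMPs outside the cell and keep them from their receptors, and Bambi resembles a type I receptor without a kinase domain and dampens both BMP and TGF-beta signalling. In the developing tongue, BMP ligands and their antagonists are known for patterning the taste papillae of the epithelium and for signalling in the mesenchyme below it.

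Grem1 RNA fell in the mutants, by 0.59 on the log2 scale or 1.51-fold, and it was the only one of the 10 genes to pass the threshold. Bmp5 had the largest difference, -0.86 or 1.81-fold lower in the mutants, and lay below the controls on all 3 of its probe sets, without passing on the brightest. Bambi and Bmp4 lay above the controls in all 3 mutants, by 0.56 and 0.38, and did not pass. Chrdl1 differed by -0.44 (95% interval -0.85 to -0.04), but its groups overlapped and it did not pass. For Bmp2, Bmp6, Bmp7, Chrd and Nog the 95% intervals of the difference included 0 (limma, 3 arrays a group). A gene was called when its adjusted p was under 0.05, with limma and Benjamini-Hochberg adjustment over 13645 tested genes, of which 2.14% were called, 1.32% as higher and 0.821% as lower. Each tested gene was read by its brightest probe set. Of the 10 genes 9 were tested, and 1 was called, as lower. Nog lay below the filter on dim genes, which left out the lowest 25% of mean values (under 5.17 on the log2 scale). The 3 mutants lay on one side of the 3 controls for 4 of the 9 tested genes, 2 above and 2 below, against 25.1% of all tested genes (13.6% above and 11.5% below). At an unadjusted p under 0.05 there were 5 of the 9, against 16.9% of all tested genes (9.43% higher and 7.46% lower).

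The promoter sequences of the gene that passed and of the 2 ligands whose mutant and control values did not overlap, in opposite directions, are shown because these are the members the results turn on. Each is the 250 bases before the gene's start, 5′ to 3′ on the gene's own strand, from RefSeq's mouse assembly GRCm38.p6. Windows were read for 5 of the 10 genes. Bambi is not among them, since members on its chromosome were left out. Capitals mark CAGAC, the short box bound by Smad3 and Smad4, and GGCGCC, a GC-rich element bound by BMP-activated Smads, each searched on both strands, where CAGAC reads GTCTG on the other strand.
Grem1, chr2:113758649-113758898, minus strand: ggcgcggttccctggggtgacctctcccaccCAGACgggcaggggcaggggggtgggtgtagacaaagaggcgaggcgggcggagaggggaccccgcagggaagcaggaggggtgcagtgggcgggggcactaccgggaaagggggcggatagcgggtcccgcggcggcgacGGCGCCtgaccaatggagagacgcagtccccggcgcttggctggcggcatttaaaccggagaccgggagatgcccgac
Bmp5, chr9:75775115-75775364, plus strand: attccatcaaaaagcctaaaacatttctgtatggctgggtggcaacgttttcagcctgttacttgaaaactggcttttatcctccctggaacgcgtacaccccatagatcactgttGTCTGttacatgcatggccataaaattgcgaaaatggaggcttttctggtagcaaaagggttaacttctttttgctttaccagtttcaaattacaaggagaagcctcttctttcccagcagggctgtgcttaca
Bmp4, chr14:46390670-46390919, minus strand: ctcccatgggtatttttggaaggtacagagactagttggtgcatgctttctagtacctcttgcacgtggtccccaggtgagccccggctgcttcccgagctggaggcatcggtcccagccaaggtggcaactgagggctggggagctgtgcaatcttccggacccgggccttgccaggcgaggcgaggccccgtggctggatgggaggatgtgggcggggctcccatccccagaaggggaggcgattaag
The Grem1 window held 1 CAGAC and 1 GGCGCC, and its GC content was 72.0%. The Bmp5 window held 1 CAGAC, as its reverse complement, and no GGCGCC, with a GC content of 42.8%. The Bmp4 window held neither string, with a GC content of 63.2%. Of 32851 windows of the same length, 42.2% held CAGAC and 9.59% held GGCGCC, and their median GC content was 52.4%. These matches are descriptions of the letters only.

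Values are log2 expression made by the authors with RMA. Levels of different probe sets were compared only to rank those of a gene, to apply the filter and to describe marker levels. Mutant array 1 stood apart from the others: it correlated with them at 0.9658 to 0.9782 over the tested genes, against 0.9841 to 0.9976 among the other 5 arrays, so the differences of the members and of the other named genes are also given without it. By Xist and 3 Y-linked genes, mutant arrays 1 and 3 and control array 1 came from females and the other 3 arrays from males. The brightest Tgfbr2 probe set differed by -0.18 (limma standard error 0.17, adjusted p = 0.679 over all probe sets), and this value does not check the genotype labels, since the gene stays intact in cells of other descent and whether a probe lies in the floxed part is not known here. The sample descriptions speak of tongue mesenchyme, whereas the tissue label says tongue. All 10 markers of skeletal muscle, all 8 of mesenchyme and all 8 of epithelium lay above the filter, with mean values up to 14.22 for Actc1, a sarcomeric actin, 14.04 for Col3a1, a fibrillar collagen, and 12.80 for Krt15, a basal keratin. In whole tissue, fewer cells of a type and less RNA per cell cannot be told apart.

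Among the ligands, Bmp5, a BMP known in the mouse for shaping cartilage of the ear and skeleton, had the largest difference. Its brightest probe set read 7.50, 8.10 and 8.16 in the mutants, against 8.50, 8.91 and 8.92 in the controls. All mutant values lay below all control values, and mutant array 1 was the lowest. The means were 7.92 ± 0.36 in the mutants and 8.78 ± 0.24 in the controls (SD, n = 3 each, 1.81-fold lower in mutants). The difference of -0.86 (95% interval -1.32 to -0.39) had an adjusted p of 0.0908 (limma). With the replicate number as a block it was past the threshold (limma adjusted p = 0.0127). The labels do not state that equal numbers are pairs, and the check of pairing below does not single them out. Bmp5 also passed without mutant array 1, where the difference was -0.65 (limma adjusted p = 0.0478). It did not pass when any other array was left out (limma adjusted p = 0.0802 to 0.349) or with sex as a covariate (0.159).

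The other probe sets of Bmp5 gave nearly the same difference with less spread. The middle one read 6.02, 6.34 and 6.42 in the mutants, against 6.96, 7.14 and 6.99 in the controls, a difference of -0.77. The dimmest read 4.82, 5.04 and 4.90 in the mutants, against 5.61, 5.61 and 5.79 in the controls, a difference of -0.75. In both, every mutant lay below every control. When all 34945 probe sets were tested without a filter (limma), both passed, with adjusted p of 0.0372 and 0.0237, and the brightest did not (0.112). In that fit 3 of the 17 member probe sets were called, all lower and 2 of them reading Bmp5, against 0.512% of all probe sets called lower. Averaged over its probe sets Bmp5 passed as well (-0.79, adjusted p = 0.0234), against 1.01% of genes called lower with such means.

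Bmp4, a ligand expressed in many embryonic epithelia and mesenchymes, ran the other way. It read 9.51, 9.77 and 9.58 in the mutants, against 9.43, 9.23 and 9.04 in the controls. The groups did not overlap, but mutant array 1 lay close to control array 1. The mutants averaged 9.62 ± 0.14 and the controls 9.24 ± 0.20 (SD, n = 3 each), a difference of 0.38 (95% interval 0.08 to 0.68, limma adjusted p = 0.197) that was 0.44 without mutant array 1.

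The remaining ligands had smaller differences, and their groups overlapped. Bmp2, a ligand with roles in bone and epithelial signalling, read 9.25, 9.53 and 9.37 in the mutants, against 9.55, 9.76 and 9.48 in the controls (-0.21, limma adjusted p = 0.409). Bmp6, a close relative of Bmp5 and Bmp7 known also for iron regulation in the liver, read 7.59, 7.86 and 7.59 in the mutants, against 8.03, 7.78 and 7.93 in the controls (-0.24, 0.354). Mutant arrays 1 and 3 lay below all controls for Bmp6, whereas mutant array 2 lay inside the control range. Bmp7, which is needed for eye and kidney development in the mouse, read 8.27, 8.65 and 8.48 in the mutants, against 8.33, 8.24 and 8.31 in the controls (0.17, 0.487), and its other probe sets differed by 0.19 and 0.01. The 95% intervals of these differences, -0.49 to 0.06 for Bmp2, -0.51 to 0.03 for Bmp6 and -0.09 to 0.44 for Bmp7, still allow changes of about the size seen for Bmp4. Without mutant array 1 the differences were -0.15 for Bmp2, -0.19 for Bmp6 and 0.27 for Bmp7.

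**Figure D1:**
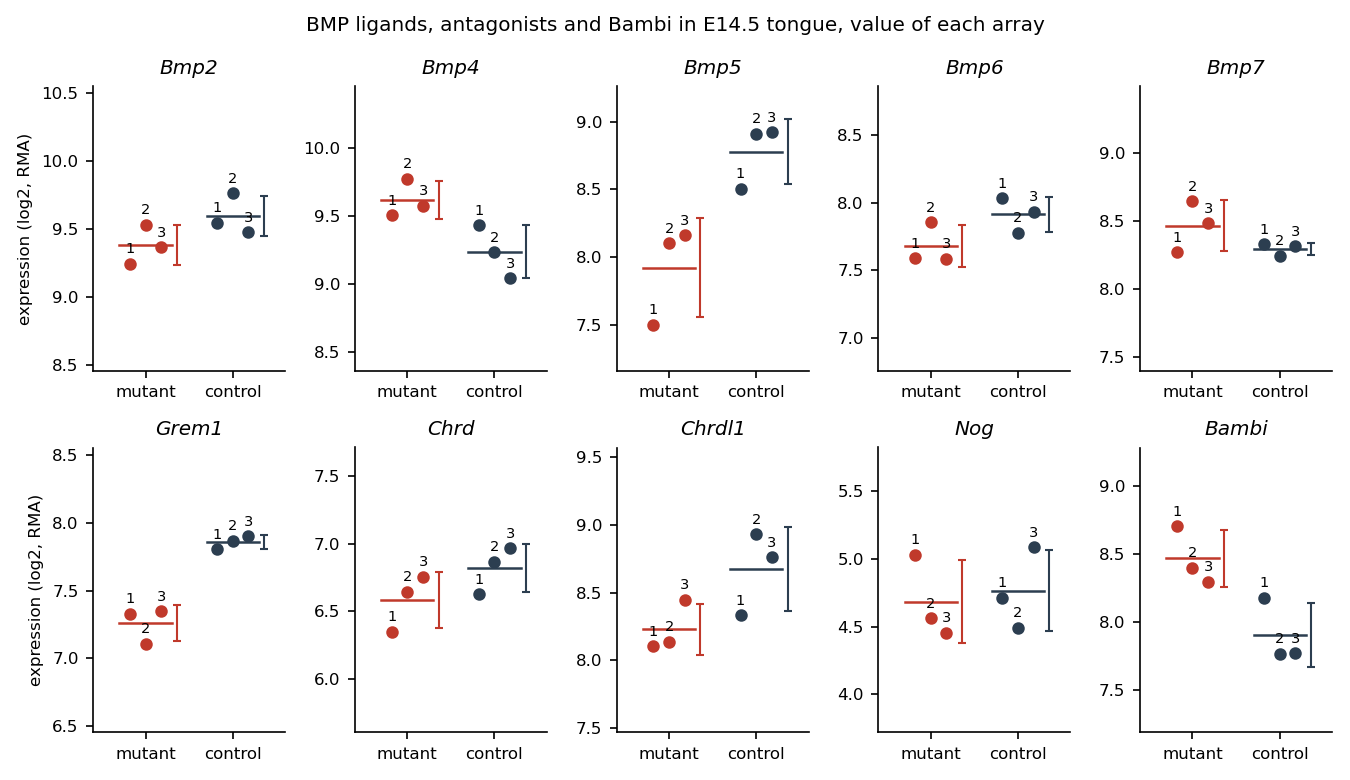
Each panel plots 1 gene by its brightest probe set, in log2 units on an axis of the same span, with 3 mutants left of 3 controls (numbers are the replicate numbers, lines the group means, bars at the side ± 1 SD). Mutants and controls separate for Bmp5 and Grem1 (mutants below) and for Bmp4 and Bambi (mutants above) and overlap for the other 6 genes.

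Among the antagonists, Grem1, a secreted cystine-knot protein that binds chiefly BMP2, BMP4 and BMP7, was the gene that passed. It read 7.33, 7.11 and 7.35 in the mutants, against 7.80, 7.87 and 7.90 in the controls. The controls lay close together, and every mutant lay below them. The mutants averaged 7.26 ± 0.13 and the controls 7.86 ± 0.05 (SD, n = 3 each), a difference of -0.59 (standard error 0.10, 95% interval -0.83 to -0.36, limma adjusted p = 0.0298). The size hardly moved when arrays were left out, -0.52 to -0.64, but the call did. It held without mutant array 1 (limma adjusted p = 0.0161) and was lost without mutant array 2 (0.0868), mutant array 3 (0.0511), control array 1 (0.0928), control array 2 (0.170) and control array 3 (0.174). The difference was -0.46 among females, with 2 mutants and 1 control, and -0.78 among males, with 1 mutant and 2 controls. With sex as a covariate Grem1 gave -0.62 (limma adjusted p = 0.0697). The name of its 1 probe set ends in a suffix for probes that match several transcripts of a gene.

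Chrdl1, a chordin relative that binds BMPs, read 8.11, 8.14 and 8.45 in the mutants, against 8.33, 8.93 and 8.76 in the controls, on its brightest probe set. Control array 1 lay among the mutants. The difference was -0.44 (95% interval -0.85 to -0.04, limma adjusted p = 0.258), and -0.38 without mutant array 1. Its other 3 probe sets gave -0.21, -0.30 and -0.36, and the first of these was 0.04 without mutant array 1, with the sign turned. The last was the dimmest, with a mean of 3.87, under the filter value. Within females the difference of the brightest was -0.06, and within males -0.71.

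Chrd and Nog, the chordin and noggin of the early embryo's organizer, had small differences. Chrd read 6.35, 6.64 and 6.76 in the mutants, against 6.63, 6.87 and 6.96 in the controls (-0.24, 95% interval -0.56 to 0.09, limma adjusted p = 0.440), and without mutant array 1 the difference was -0.12. Nog read 5.03, 4.56 and 4.45 in the mutants, against 4.71, 4.49 and 5.09 in the controls. These lie under the filter value, so Nog has no test among the 13645 genes, and in the fit of all probe sets its difference was -0.08 (95% interval -0.53 to 0.37, limma), and -0.26 without mutant array 1. RMA compresses differences so close to the background.

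Bambi, whose own transcription is known to be raised by BMP and TGF-beta signals, read 8.71, 8.40 and 8.30 in the mutants, against 8.18, 7.76 and 7.77 in the controls. Every mutant lay above every control, and control array 1 lay nearest to the mutants. The mutants averaged 8.47 ± 0.21 and the controls 7.90 ± 0.24 (SD, n = 3 each), a difference of 0.56 or 1.48-fold (95% interval 0.20 to 0.93, limma adjusted p = 0.131). With the replicate number as a block, a pairing that the labels do not state, Bambi passed (limma adjusted p = 0.0351). With that block 3 of the 9 tested genes were called (Grem1 and Bmp5 lower, Bambi higher), where 3.59% of all tested genes were (2.07% higher and 1.52% lower). The same 3 were called with arrays weighted by quality, where 7.58% of all tested genes were. With sex as a covariate 0 of the 9 were called (limma; 2 higher and 2 lower at an unadjusted p under 0.05), where 0.989% of all tested genes were. Without mutant array 1 the Bambi difference was 0.44 (limma adjusted p = 0.128), and 2 of the 9 genes were called, Grem1 and Bmp5, both lower, against 1.74% of all tested genes called lower.

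**Figure D2:**
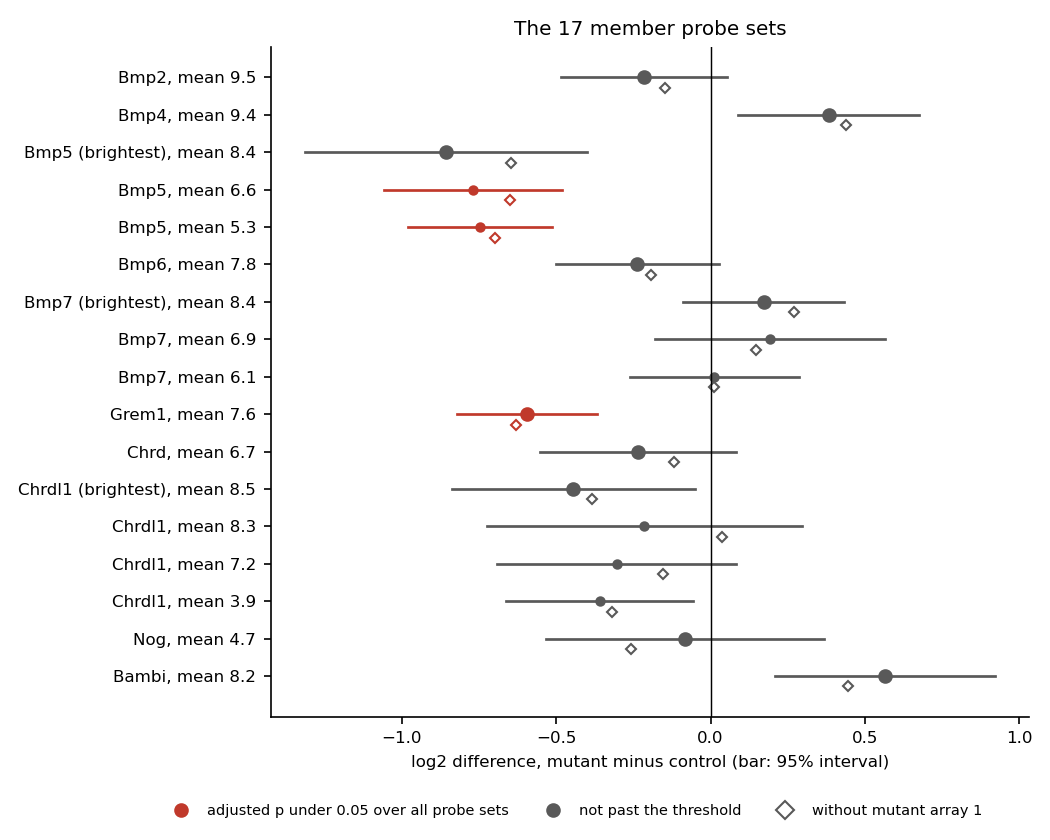
Log2 difference (mutant minus control) of each of the 17 probe sets of the 10 genes from the limma fit of all 34945 probe sets, with 95% intervals as bars, red where the adjusted p was under 0.05, and hollow diamonds for the difference without mutant array 1. Grem1 and the dimmer pair of Bmp5 probe sets are red, and all 3 Bmp5 values lie between -0.86 and -0.75.

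Other genes of the pathway were counted by role in lists of 6 to 15 tested genes. The other BMP and GDF ligands held 6 tested genes, and 0 passed in either direction or at an unadjusted p under 0.05 (limma). Gdf10, a ligand close to Bmp3, read 9.15, 10.10 and 9.87 in the mutants, against 9.12, 9.36 and 9.44 in the controls. Its difference of 0.40 was 0.67 without mutant array 1, where it passed (adjusted p = 0.0294), and 0.20 without mutant array 2 (0.661). Of the 6 fits with 1 array left out, Gdf10 passed in that one only. It also passed with arrays weighted by quality (0.56, limma adjusted p = 0.0427).

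Of 15 tested secreted binding proteins and proteases, 2 rose and 0 fell (limma; 5 higher and 1 lower at an unadjusted p under 0.05). Among all tested genes 1.32% were called higher and 0.821% lower, and 9.43% were higher and 7.46% lower at an unadjusted p. Fst, which encodes follistatin, a binder of activins and of some BMPs, read 11.98, 11.68 and 11.79 in the mutants, against 10.57, 10.41 and 10.37 in the controls. This was 1.37 higher (2.58-fold, adjusted p = 0.00361), and the call held whichever of the 6 arrays was left out. Sostdc1, which encodes ectodin, a BMP and Wnt antagonist of tooth and papilla epithelium, read 11.72, 11.96 and 11.65 in the mutants, against 11.23, 11.21 and 11.19 in the controls. It rose by 0.57 (limma adjusted p = 0.0440), a call that was lost without each of mutant arrays 2 and 3 and control arrays 1, 2 and 3 (0.0515 to 0.218). It was also lost with arrays centred on their median (0.0605), the lowest 50% of genes left out (0.0515), all probe sets tested (0.0565) and sex as a covariate (0.0743). Bmper, which encodes crossveinless 2, a BMP-binding regulator made by endothelial and other cells, read 6.85, 7.70 and 7.67 in the mutants, against 8.44, 8.77 and 8.48 in the controls. Its difference, -1.15 or 2.23-fold lower in the mutants, missed the threshold (limma adjusted p = 0.0555) and passed with the block (0.0182) and without mutant array 1 (-0.88, 0.00976). Bmper also passed with arrays centred on their median (0.0496), means of probe sets (0.0453) and arrays weighted by quality (0.00640). It did not pass when any other array was left out (0.0625 to 0.247) or with sex as a covariate (0.119). Sost, Fstl3 and Nbl1, also encoding secreted antagonists, differed by 0.43, 0.38 and 0.38 and did not pass. Without mutant array 1 the differences were 0.36, 0.50 and 0.46, and Fstl3 passed there (adjusted p = 0.0357). The Fst and Sostdc1 differences were 1.28 and 0.59 without it.

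Of 11 tested receptors and co-receptors 1 fell and 0 rose, with 2 lower and 0 higher at an unadjusted p under 0.05 (limma). Among all tested genes 0.821% were called lower, and 7.46% were lower at an unadjusted p. Rgmb, which encodes a membrane-anchored BMP co-receptor, read 8.95, 8.91 and 9.18 in the mutants, against 9.49, 9.82 and 9.69 in the controls. It fell by 0.66 (limma adjusted p = 0.0441), and the difference was -0.63 without mutant array 1. Its 5 other probe sets differed by -0.57 to 0.24, and the mean of all gave -0.27 (0.263). The call was lost without each of mutant arrays 2 and 3 and control arrays 1, 2 and 3 (0.0507 to 0.212), with the lowest 50% left out (0.0518), all probe sets tested (0.0565), a further quantile normalization (0.0572) and sex as a covariate (0.118). Of the type I receptors, Acvr1 differed by -0.36, Acvrl1 by 0.27, Bmpr1b by 0.19 and Bmpr1a by -0.10, and none of these 4 passed. Without mutant array 1 the values were -0.21 for Acvr1, 0.37 for Acvrl1, 0.29 for Bmpr1b and -0.04 for Bmpr1a. The other probe sets of Bmpr1a differed by -0.27, -0.26, -0.19, -0.07 and 0.11, and those of Bmpr1b by 0.06 and -0.23. Those of Acvr1 differed by -0.34 and -0.11, and that of Acvrl1 by 0.44. None of these passed in the limma fit of all probe sets.

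Of 11 tested Smads and intracellular regulators 0 passed, with 1 higher and 0 lower at an unadjusted p under 0.05 (limma). Among all tested genes 9.43% were higher and 7.46% lower at that threshold. The one was Smad6, the inhibitory Smad of the BMP branch, which read 8.21, 8.60 and 8.13 in the mutants, against 7.92, 7.66 and 7.74 in the controls (0.54, limma adjusted p = 0.124, and 0.59 without mutant array 1). Smad5, one of the Smads that BMP receptors phosphorylate, differed by -0.21 on its brightest probe set (-0.11 without mutant array 1) and by -0.57 and -0.42 on the others. Every mutant lay below every control on all 3, as for 11.5% of all tested genes on their brightest probe set. The mean of its probe sets gave -0.40 (limma adjusted p = 0.103). Tob1 differed by -0.21, by -0.18 without mutant array 1 and by -0.08 as a mean of probe sets, and Ski by -0.19, or -0.07 without mutant array 1.

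Of 12 tested response genes 0 passed (limma; 6 higher and 1 lower at an unadjusted p under 0.05, where 9.43% of all tested genes were higher and 7.46% lower). Id4 and Id3, members of the Id family of helix-loop-helix inhibitors that BMP signals switch on, differed by 0.61 and 0.55 (limma adjusted p = 0.0927 and 0.126), and by 0.64 and 0.53 without mutant array 1. Id4 read 8.48, 8.71 and 8.47 in the mutants, against 8.18, 7.97 and 7.69 in the controls. Of its dimmer probe sets, 1 differed by 0.64 and passed in the limma fit of all probe sets (adjusted p = 0.0280), and the other differed by 0.25 and did not (0.263). Id4 also passed as a mean of its probe sets (0.50, limma adjusted p = 0.0380) and with arrays weighted by quality (0.69, 0.0258). Sp7 and Dlx3, transcription factor genes of bone and of surface ectoderm, differed by 0.30 and 0.27, and by 0.31 and 0.26 without mutant array 1. The lower gene was Atoh8, a helix-loop-helix factor gene named after its values were seen, at -0.25 (limma adjusted p = 0.220), or -0.21 without mutant array 1. Over the lists the median log2 differences were 0.10 for the other ligands, 0.07 for the secreted proteins, -0.06 for the receptors, -0.03 for the Smads and 0.18 for the response genes. They compare with -0.24 for the 9 tested ligands, antagonists and Bambi and 0.02 for all tested genes. Without mutant array 1 the medians were 0.07, 0.17, 0.07, 0.02 and 0.17 in the same order of lists, so that the sign turned for the receptors and the Smads, against -0.15 for the 9 and 0.02 for all tested genes.

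**Figure D3:**
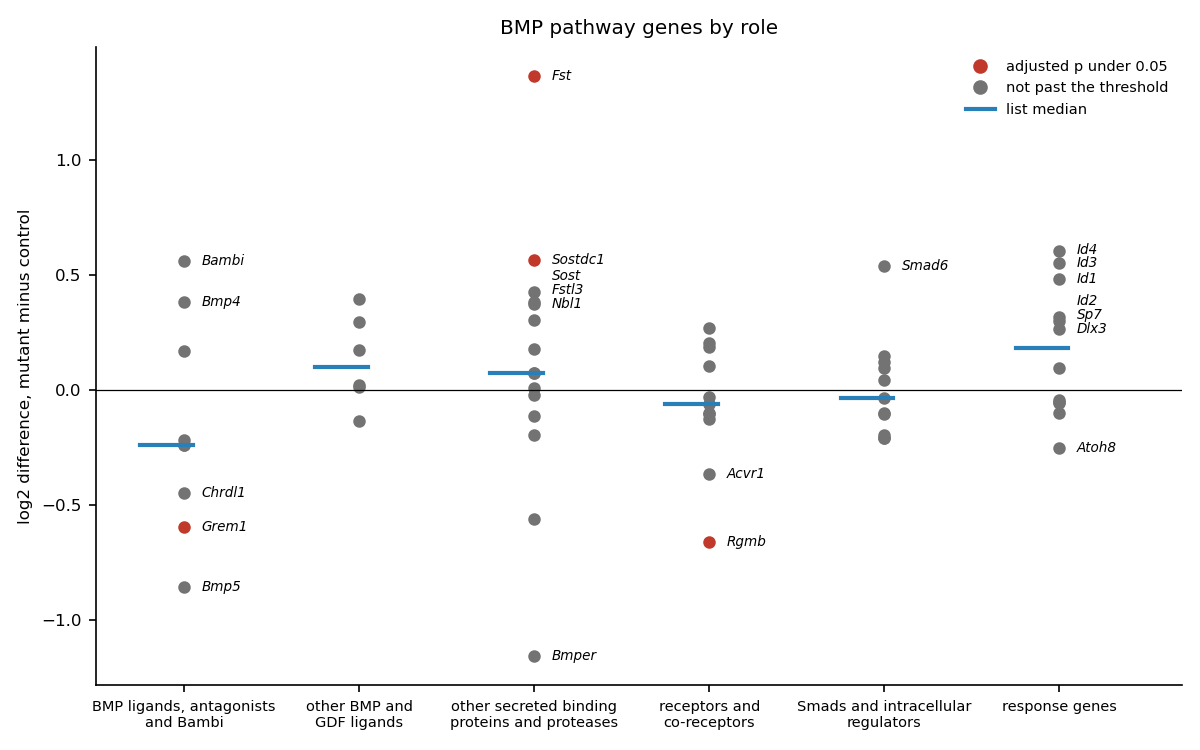
Log2 difference (mutant minus control) of every tested gene of the BMP pathway lists, 1 column per role, red where the adjusted p was under 0.05, with blue bars for list medians and names for genes with an unadjusted p under 0.05. Grem1 and Rgmb are called lower and Fst and Sostdc1 higher, and Bmper lies lowest of all at -1.15 without a call.

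Levels of cell type markers are given beside these genes, and their part in the differences above was not tested. The marker counts stand against the shares of all tested genes: 1.32% called higher and 0.821% lower by limma. At an unadjusted p under 0.05 the shares were 9.43% higher and 7.46% lower. Epithelial markers (8 of 8 above the filter, 0 called by limma, 6 higher at an unadjusted p under 0.05) had array medians, relative to the control mean, of 0.97, 0.62 and 0.27 in mutant arrays 1, 2 and 3, against 0.11, -0.08 and -0.04 in the controls. Their summed level, the log2 of the summed antilogs, was 14.23 to 14.87 in the mutants and 13.87 to 13.98 in the controls. In each list such a sum weighs the brightest markers most. Bambi ranked the 6 arrays in the same order as this epithelial median, with mutant array 1 highest and control array 2 lowest. Its values in control arrays 2 and 3 were nearly level (7.765 and 7.768). Bmp4 did not follow this order, being highest in mutant array 2. The main axis of variation among the arrays (first principal component, 57.2% of the variance) also ran from mutant array 1 through 2 and 3 to control array 1. The order shared by Bambi and the epithelial median is therefore not particular to them.

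Endothelial markers (6 of 6 above the filter, 0 called by limma, 1 lower at an unadjusted p under 0.05) had a median of -1.004 in mutant array 1, against -0.14 and -0.11 in mutant arrays 2 and 3 and -0.05 to 0.09 in the controls. Their summed level was 9.88 to 10.70 in the mutants and 10.70 to 10.84 in the controls. Bmp5 and Bmper were also lowest in mutant array 1, and without that array the differences of -0.65 and -0.88 compare with an endothelial median of -0.12. Skeletal muscle markers (10 of 10 above the filter, 0 called by limma, 4 lower at an unadjusted p under 0.05) had medians of -0.69, -0.26 and -0.25 in the mutants, against -0.15, 0.06 and 0.09 in the controls. Their summed level was 15.56 to 16.05 in the mutants and 16.08 to 16.32 in the controls. Bmp5 ranked the 6 arrays in the same order as this muscle median, which is also the order of the main axis of variation. Without mutant array 1 the muscle median differed by -0.20, beside -0.65 for Bmp5.

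Mesenchymal markers (8 of 8 above the filter, 0 called by limma, 1 lower at an unadjusted p under 0.05) had a median of -0.36 in mutant array 1 and of -0.04 and -0.10 in mutant arrays 2 and 3, against 0.00 to 0.05 in the controls, with summed levels of 14.83 to 15.52 in the mutants and 15.40 to 15.55 in the controls. Grem1 was lowest in mutant array 2, at -0.75 relative to the control mean, and without mutant array 1 it differed by -0.63 while the mesenchymal median differed by 0.02. Macrophage markers (6 of 6 above the filter) had array medians of 0.48 to 0.78 in the mutants and -0.13 to 0.14 in the controls, and 3 were called, all higher: C1qa, C1qb and C1qc, the subunits of complement C1q. Their summed level was 11.03 to 11.15 in the mutants and 10.59 to 10.85 in the controls. Neuronal markers (6 of 6 above the filter, 1 called by limma, 3 higher and 1 lower at an unadjusted p under 0.05) had medians of 0.10, 0.93 and 0.91 in the mutants and -0.08 to 0.14 in the controls, with summed levels of 11.11 to 11.71 in the mutants and 11.46 to 11.52 in the controls. The called one was Stmn2, a microtubule regulator gene, at 1.07 (limma adjusted p = 0.0272), and the lower one Dcx, the doublecortin gene of young neurons, at -1.34 (0.0736). Cartilage, Schwann cell and red cell lists had median differences of -0.08, 0.19 and -0.19, with 1, 2 and 0 genes higher and 0, 0 and 1 lower at an unadjusted p under 0.05 (limma). Of the cartilage markers Col11a2 and Matn1 lay under the filter, and Col9a1 was called higher.

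**Figure D4:**
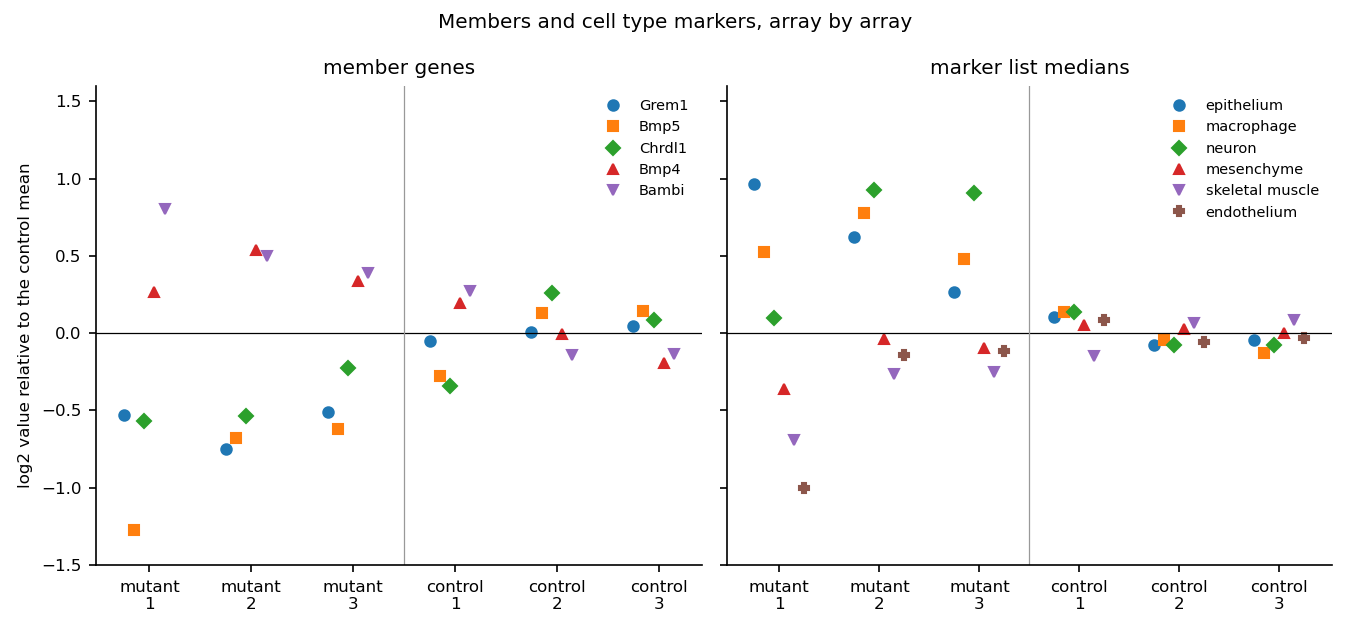
Log2 value of each array relative to the control mean, for 5 of the genes (left) and for the median of 6 marker lists (right), with mutants left of controls. Grem1 and Bmp5 are below all controls in every mutant, while epithelial and macrophage medians are above them and the endothelial median is -1.004 in mutant array 1 alone.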

How the data were processed

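RNA of 3 mutant and 3 control tongues was labelled with biotin as cRNA for Affymetrix arrays, per the labels. The deposited values are on a log2 scale, 1 per probe set and array, and the authors made them with RMA (background correction, quantile normalization and probe summary), as named without a version in the submitters' processing notes. The quantile step would hide a shift common to most genes. Of 45101 probe sets, 64 were controls, 34945 had 1 gene symbol, 932 several and 9160 none listed. RefSeq (GRCm38.p6) changed 0 symbols.

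Each gene was read by its brightest probe set, and the lowest 25% of 18193 genes (under 5.17) were left out. The comparison was fitted by limma 3.58.1 under R 4.3.3 (lmFit and eBayes, 2-sided), after being tested on simulated data. Probe sets were also tested singly. Figures used matplotlib 3.10.9. The members, lists, alternatives and rule for named genes were chosen with earlier results of these data known. The rule named the members, called genes and up to 4 further genes of smallest p per list, and the 3 genes most like a called member.

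To check pairing, each array was centred on its group mean. Arrays with equal title numbers then correlated at 0.309, 0.105 and 0.206, all over 0.1. By that limit the numbers were treated as a pairing, for which there is no other source. Some unequal numbers were over the limit too: mutant 2 with control 3 at 0.196, above its own number, and mutant 3 with control 2 at 0.147. The check therefore does not single out the title numbers. By sex, the arrays numbered 1 matched and those numbered 2 matched, while those numbered 3 did not. Arrays have no read depth, and their number limits the precision: the median standard error was 0.117.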

Additional observations from a re-analysis of the deposited data

How the results depend on the processing

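For the 32 named genes with a test, 502 recomputed differences all kept their sign, and 457 kept their side of the threshold, while 20 gained a call and 25 lost one. Several settings change only the test and not the difference, so the sign could not turn there. Among them are the changed filters, the fit of all probe sets and the replicate block. The 1 call among the members became 2 with means of probe sets or an adjusted p under 0.1, 3 with array quality weights and 3 with the replicate block. It became 0 with sex as a covariate (limma; 2 higher and 2 lower at an unadjusted p under 0.05), and 0 to 2 when 1 array was left out. The 292 calls over all genes became 151 with the lowest 50% left out, 1034 with array quality weights, 490 with the replicate block, 135 with sex as a covariate, 549 at an adjusted p under 0.1, and 16 to 670 when 1 array was left out. The 3 calls in the pathway lists became 1 with the lowest 50% left out, 11 with array quality weights, 1 with sex as a covariate, 6 at an adjusted p under 0.1, and 1 to 8 when 1 array was left out. Array quality weights gave calls to Bmp5, Grem1 and Bambi (adjusted p = 0.0112, 0.00386 and 0.0325). The cause of these shifts was not tested. The replicate block, which pairs the arrays by title number, also kept Grem1 (adjusted p = 0.0383), Sostdc1 (0.0457) and Rgmb (0.0389) past the threshold and changed no other call of a named gene than those of Bmp5, Bambi and Bmper. Nog lay near the background, which limits its precision.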

Other observations

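The tested genes whose values over the 6 arrays were most like those of Grem1 were Stk39, a kinase gene, Lpar1, a lysophosphatidic acid receptor gene, and Fabp4, a fatty acid binding protein gene, with Pearson correlations of 0.999, 0.995 and 0.994 out of 13636 genes. All 3 lay below the controls in every mutant, with log2 differences of -0.24, -0.52 and -2.73. The 6 arrays share the split by genotype, so high correlations are given as a description only.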
